A study of Mus musculus with 12 samples.

Results

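Mouse bone marrow-derived macrophages given PgLPS together with CS-PA/CNP were compared with the same cells given PgLPS alone, to see which parts of the PgLPS state were lowered, kept or raised. The comparison took the 3 read-count columns of each of these 2 groups, 6 of the 12 libraries in the series, and covered every gene above a low-count filter, 11656 of the 21899 genes in the table. The series also holds 3 libraries of control cells and 3 of cells given CS-PA/CNP without PgLPS. All cells were primary, wild-type macrophages grown from bone marrow, and messenger RNA was measured by sequencing. The labels give no dose, exposure time, order of addition, strain or age, and nothing in them ties a library to its own animal or culture, so every p-value measures the spread between these libraries, which may be technical. In bulk RNA, fewer cells of a type and less RNA per cell cannot be told apart.

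Levels are read counts relative to library size (CPM), scaled between libraries by edgeR's trimmed mean method (TMM), and changes are log2 fold changes, both agents minus PgLPS, with their standard errors (SE). A mean level in CPM is followed by its SD over 3 libraries, and a log2 fold change by its SE. A gene was called raised or lowered, and is said to have risen or fallen, where edgeR's quasi-likelihood test gave a Benjamini-Hochberg adjusted p under 0.05 over all tested genes. It was kept where the 95% interval of its fold change lay within 1.5-fold in either direction, which can also hold for a gene with a small called change. A gene that was neither called nor kept was measured too imprecisely to place.

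Macrophages read microbial products through Toll-like receptors. One branch of that signal frees NF-kB from its inhibitors and switches on interleukin-1, interleukin-6, chemokines and the feedback inhibitors that end the response. A second branch runs through interferon regulatory factors to type I interferon, whose receptor acts through JAK kinases and STAT factors to raise antiviral genes. Activated macrophages also take up more glucose, make itaconate and nitric oxide, and draw on NRF2, a sensor of oxidants and electrophiles, to raise antioxidant enzymes. These arms can move separately, so each was described by its own gene list.

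The 6 libraries held between 14992707 and 19422021 assigned reads, and TMM factors were 0.853 to 0.875 in the PgLPS libraries and 0.890 to 0.901 with both agents. Mitochondrially encoded genes took 1.07% to 1.17% of reads with PgLPS and 1.21% to 1.28% with both agents. The summed level of 9 macrophage markers was 29900 to 32400 CPM with PgLPS and 28800 to 30400 CPM with both agents, and no marker of that list was at 0 reads. Of the markers of other cells, 10 neutrophil genes summed to 276 to 297 CPM against 210 to 252 CPM, and 8 erythroid and megakaryocyte genes summed to 348 to 493 CPM against 537 to 614 CPM. In the T and NK cell list, 4 of 8 genes, Cd3d, Cd8a, Gzma and Prf1, had no read in the 6 libraries. The 11 fibroblast and stroma markers summed to 29.3 to 103 CPM with PgLPS and 15.9 to 22.2 CPM with both agents, and the highest sum belonged to PgLPS library 1. Across the tested genes, libraries numbered 2 stood apart from the others on the second principal component, in both groups.

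CS-PA/CNP added to PgLPS raised 1098 genes (9.42% of those tested) and lowered 1170 (10%), and 7650 genes (65.6%) were kept within 1.5-fold. Of the kept genes, 6706 were not called and 944 (8.1% of those tested) were called with a small change. A further 2682 genes (23%) were neither called nor kept. Most calls were small, with 1250 of the 2268 called genes under 0.5 on the log2 scale, 663 between 0.5 and 1, 296 between 1 and 2, and 59 above. At 2-fold or more, 152 genes rose (1.3%) and 203 fell (1.74%), and at 4-fold or more, 19 rose and 40 fell. Among genes that reached 5 CPM in the higher group, the 4-fold changes numbered 3 rises and 16 falls. The 3 libraries of one group lay wholly above or below those of the other in 3659 genes (31.4%). Rises made up 48.4% of calls, and 61.4% (1497 rises and 940 falls) when libraries were scaled by their totals alone.

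**Figure D1:**
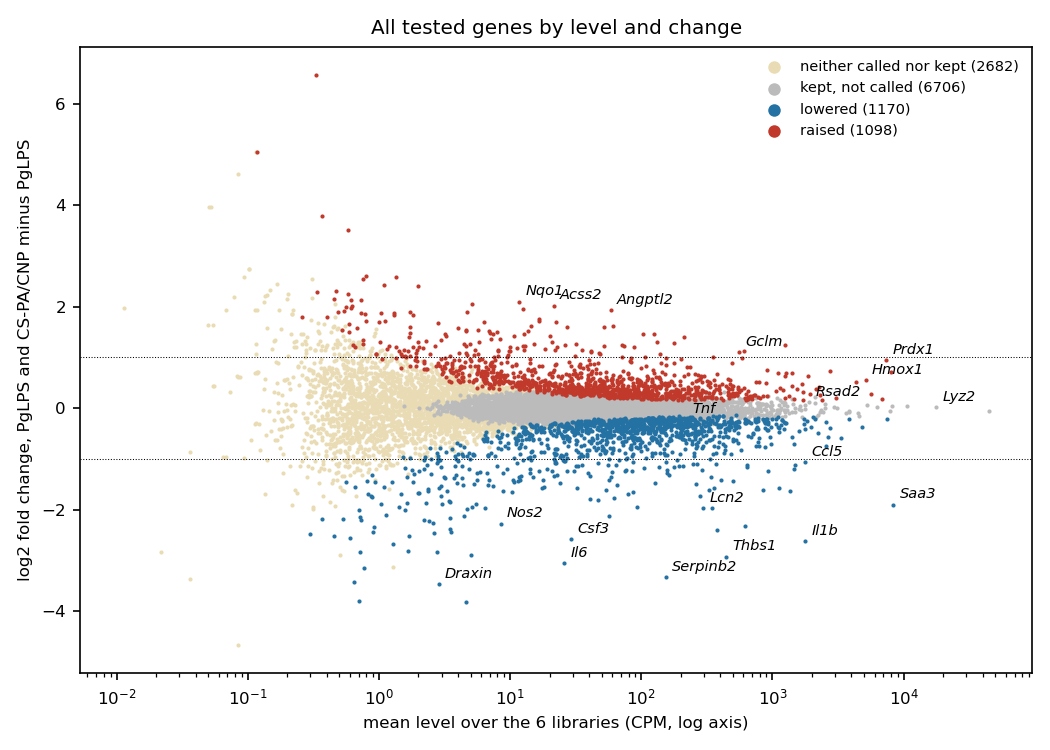
Each point is 1 of 11656 tested genes, with its mean level over the 6 libraries on a log axis in CPM and its log2 fold change, PgLPS and CS-PA/CNP minus PgLPS, on the vertical axis; dotted lines mark 2-fold. Among genes with 5 CPM or more in the higher of the groups, 16 fell and 3 rose by 4-fold or more.

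What could be called depended on level. Quartiles were taken by mean CPM over all 12 libraries, without gene length. In the lowest quartile of genes by level (0.226 to 7.56 CPM), 4.43% rose, 5.18% fell and 79.4% could not be placed. In the highest quartile (71.8 to 32700 CPM), 15.4% rose, 17.9% fell, 87.9% were kept and 0.172% could not be placed. The median SE of a log2 fold change was 0.34 in the lowest quartile and 0.07 in the highest. A low gene without a call was therefore often not measured well enough to be called kept.

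By the Gene Ontology terms that the deposited table attaches to each gene, falls were frequent among secreted and inflammatory genes. Of 219 genes under inflammatory response, 37.9% fell and 13.2% rose. Cytokine activity had 34.5% of 84 genes lowered and 9.52% raised. Falls took 22% and rises 15.3% of 523 extracellular space genes, and 20.4% and 8.03% of 137 genes under defense response to virus, of which 78.1% were kept. Mitochondrion (1464 genes) showed the other order, with 6.15% lowered and 10.4% raised, as did nucleolus with 5.96% and 11.5% of 721 genes. In the table's eggNOG functional classes, translation had the smallest share of falls, 1.4% of 357 genes, while nucleotide metabolism had 21.3% of 89 genes raised.

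**Figure D2:**
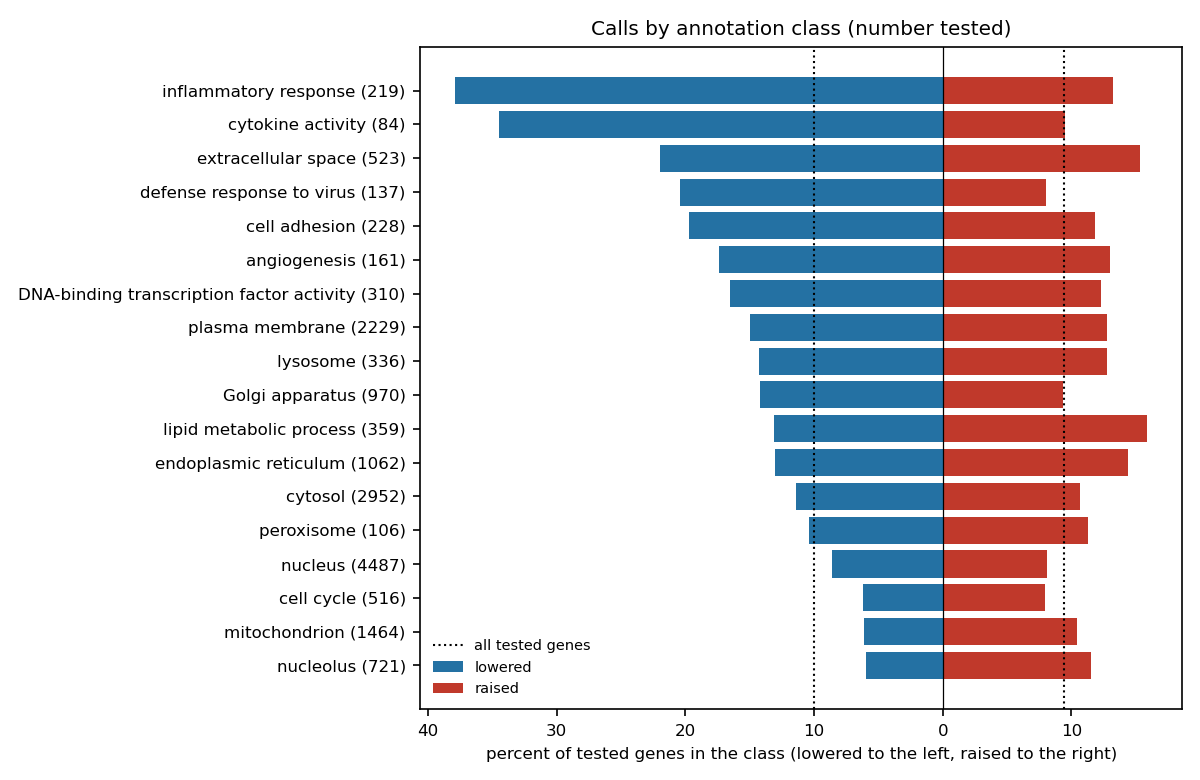
Bars give the percent of tested genes under each Gene Ontology term that were lowered (left of 0) or raised (right of 0) by CS-PA/CNP added to PgLPS, with the number tested in brackets and dotted lines at the shares over all tested genes, 10% and 9.42%. Inflammatory response and cytokine activity have the longest bars to the left, 37.9% and 34.5%.

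The interleukin-1 and interleukin-6 families held the most strongly lowered cytokines. Of 10 tested interleukin-1 family genes 7 fell and none rose, where 10% of all tested genes fell and 9.42% rose, and the median log2 fold change was -1.28 against -0.0051 over all tested genes. Il1b, the main secreted fever-inducing cytokine of macrophages, stood at 2947, 3150 and 3091 CPM in the PgLPS libraries, at 494, 474 and 528 CPM with both agents and at 0.454 ± 0.327 CPM (SD, n = 3) in control cells. All 3 libraries with both agents were below all 3 PgLPS libraries, a 6.14-fold lower level (log2 fold change -2.62 ± 0.12, edgeR adjusted p = 5.01e-11). Il1a, its membrane-bound and alarm-releasing relative, measured 710.5, 580.2 and 626 CPM and 124, 96.1 and 141 CPM, 5.31-fold lower without overlap (log2 fold change -2.41 ± 0.11, edgeR adjusted p = 4.21e-11). The receptor antagonist Il1rn, which blocks both cytokines, fell as well, from 2055 ± 26.5 to 665 ± 42.3 CPM (log2 fold change -1.63 ± 0.06, edgeR adjusted p = 2.11e-12). Of 13 genes in the interleukin-6, interleukin-12 and interleukin-10 families 7 were tested, and 6 of those fell and 1 rose. Il6, the acute-phase cytokine, was at 50.5, 41.4 and 46.1 CPM with PgLPS and at 6.25, 4.28 and 6.13 CPM with both agents, 8.32-fold lower (log2 fold change -3.06 ± 0.16, edgeR adjusted p = 1.51e-10). Control cells held 0.0373 ± 0.0646 CPM of Il6. Il27 (log2 fold change -0.98 ± 0.14) and its partner subunit Ebi3 (-0.58 ± 0.084) fell by less.

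Il10, the main anti-inflammatory cytokine of macrophages, moved the other way but only narrowly. Its libraries held 10.1, 11.7 and 10.1 CPM with PgLPS and 17.4, 13.2 and 13.01 CPM with both agents, and the 2 groups did not overlap. The rise (log2 fold change 0.45 ± 0.15, edgeR adjusted p = 0.0454) was no longer called without PgLPS library 1 (adjusted p = 0.124), PgLPS library 3 (0.14) or both-agent library 1 (0.245).

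Tnf, the early cytokine that drives much of the secondary response, lay near the threshold of the test. Its libraries held 213, 269 and 226 CPM with PgLPS and 189, 204 and 216 CPM with both agents, with 1 library of both agents above the lowest PgLPS library, and control cells held 42.5 ± 2.07 CPM. The difference was not called (log2 fold change -0.22 ± 0.078, edgeR adjusted p = 0.0582, 95% interval -0.38 to -0.05) and lay within the 1.5-fold margin. Leaving out PgLPS library 1 (adjusted p = 0.0164) or both-agent library 3 (0.0476) brought it under the threshold, at log2 fold changes of -0.29 and -0.26, as did DESeq2 (0.0456), the fit without a low-count filter (0.0437) and a replicate block (0.0142). Of 11 TNF superfamily ligands 7 could not be placed, while Tnfsf15 was lower (log2 fold change -2.43 ± 0.35, edgeR adjusted p = 3.21e-05) and Tnfsf4, the OX40 ligand, was higher (log2 fold change 2.40 ± 0.40, edgeR adjusted p = 0.000118).

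Chemokines fell as a family where they carry the CC motif. Of 10 tested CC chemokines 9 fell and none rose, at a median of -0.68. Ccl22, which draws regulatory and type 2 T cells, measured 49.5, 55.1 and 61.2 CPM and then 23.8, 23.8 and 20.5 CPM (log2 fold change -1.28 ± 0.15, edgeR adjusted p = 3.27e-06), with no overlap. Ccl5, a T cell and monocyte attractant, went from 2181, 2616 and 2385 CPM to 1148, 1235 and 1057 CPM (log2 fold change -1.06 ± 0.12, edgeR adjusted p = 3.47e-06). Ccl3 (-0.90 ± 0.096) and Ccl9 (-0.58 ± 0.075) also fell, and no CC chemokine was kept. Of 10 CXC chemokines 2 rose and 2 fell, with 1 fall without PgLPS library 3, both-agent library 3 or library 2 of either group. The interferon-inducible Cxcl10 held 572, 605 and 505 CPM with PgLPS and 601, 533 and 508 CPM with both agents, an overlap of the groups and a log2 fold change of -0.03 ± 0.11, kept, against 1.02 ± 0.674 CPM in control cells. Cxcl14 (0.85 ± 0.097) and Pf4 (0.44 ± 0.11), also a marker in the erythroid and megakaryocyte list, rose. Among receptors for such signals, the formyl peptide receptors Fpr1 (-0.66 ± 0.08) and Fpr2 (-0.74 ± 0.07), Ccr1 (-0.44 ± 0.054) and Ccrl2 (-0.82 ± 0.087) fell. Cx3cr1, the fractalkine receptor of resting macrophages, rose (log2 fold change 0.87 ± 0.079, edgeR adjusted p = 1.67e-07).

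Granulocyte colony-stimulating factor, Csf3, was among the largest falls, from 50.7, 42.03 and 57.0 CPM to 10.6, 5.44 and 9.20 CPM, 5.99-fold lower without overlap (log2 fold change -2.58 ± 0.19, edgeR adjusted p = 1.15e-08). Its receptor Csf3r fell (-1.11 ± 0.053), while Csf1r, the receptor that keeps macrophages alive, was kept at 3119 ± 116 and 3111 ± 119 CPM (0.00 ± 0.05).

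The NF-kB list, made of subunits, inhibitors and induced feedback genes, fell broadly and by modest amounts. Of 23 tested members 16 fell and none rose, 13 were within the 1.5-fold margin (6 of those called), and the median was -0.40; without PgLPS library 2, 2 members were called raised. Traf1, a strongly NF-kB-dependent signalling adaptor, led with 173, 208 and 183 CPM against 71.5, 63.1 and 68.0 CPM (log2 fold change -1.48 ± 0.098, edgeR adjusted p = 3.4e-09). Nfkb2, the precursor of the non-canonical p52 subunit, measured 312, 348 and 325 CPM and 175, 176 and 182 CPM (log2 fold change -0.89 ± 0.066, edgeR adjusted p = 1.27e-08). The inhibitor Nfkbia, itself an NF-kB target, fell from 636 ± 39.5 to 412 ± 2.45 CPM (log2 fold change -0.63 ± 0.062, edgeR adjusted p = 6.13e-07). Tnip1, a partner of the A20 ubiquitin editor (-0.77 ± 0.054), and the RNase Zc3h12a, which degrades cytokine messengers (-0.38 ± 0.077), fell too. Tnfaip2 was kept (-0.01 ± 0.061). The libraries of each group did not overlap for Traf1, Nfkb2 or Nfkbia.

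Promoters of 2 lowered genes of this arm are shown because a kB motif lies close to the start in both. Each is the 250 bases before the RefSeq start in GRCm38.p6, written on the gene's own strand, with the match to the kB motif in capitals: Il6 at chr5:30012864-30013113 (+ strand) and Nfkbia at chr12:55492648-55492897 (- strand).
Il6: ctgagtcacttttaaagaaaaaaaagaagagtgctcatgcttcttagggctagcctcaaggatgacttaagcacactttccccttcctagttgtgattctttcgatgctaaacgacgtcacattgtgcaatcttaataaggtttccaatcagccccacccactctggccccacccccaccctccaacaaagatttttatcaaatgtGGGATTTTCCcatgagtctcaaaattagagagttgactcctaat
Nfkbia: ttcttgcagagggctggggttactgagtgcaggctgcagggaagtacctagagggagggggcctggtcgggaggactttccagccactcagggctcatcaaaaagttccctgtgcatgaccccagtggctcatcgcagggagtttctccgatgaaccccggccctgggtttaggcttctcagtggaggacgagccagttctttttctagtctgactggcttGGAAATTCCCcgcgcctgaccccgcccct
The match began 44 bases before the start in Il6 and 29 bases before it in Nfkbia. On either strand, a kB match was present in 10 of 19 NF-kB list genes with a promoter in the table (52.6%), in 8.49% of 930 lowered genes and in 5.44% of all 9381 tested genes with a promoter. A match describes the letters in this window only, and one on the other strand is printed as its reverse complement.

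Upstream of NF-kB, the Toll-like receptor list had 7 of 24 members lowered and 3 raised. In this list 14 members lay within 1.5-fold, 2 of them called, and the median was -0.135. Among all tested genes 10% fell and 9.42% rose. Cd14, the co-receptor that hands lipopolysaccharide to Tlr4, measured 1921, 2161 and 2002 CPM with PgLPS and 908, 1010 and 888 CPM with both agents (log2 fold change -1.12 ± 0.067, edgeR adjusted p = 9.33e-10). Tlr2, the receptor for bacterial lipoproteins, fell from 448 ± 8.88 to 222 ± 12.4 CPM (log2 fold change -1.01 ± 0.057, edgeR adjusted p = 4e-10), and the inhibitory kinase Irak3 also fell (-0.61 ± 0.064). The endosomal nucleic acid receptors Tlr9 (0.73 ± 0.17) and Tlr13 (0.49 ± 0.061) rose, as did Cd180 (0.64 ± 0.058), a Toll-like receptor homologue. Tlr2 and Cd14 libraries did not overlap between the groups.

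The immediate-early transcription factors divided. In a list of 19, 7 fell and 6 rose. Fosl2 fell (log2 fold change -1.24 ± 0.11, edgeR adjusted p = 1.52e-07) and Junb fell by less (-0.30 ± 0.061), while Fos (0.65 ± 0.056), Atf3 (0.62 ± 0.065), Myc (1.10 ± 0.11) and Egr2 (1.20 ± 0.082) rose. Myc held 23.3, 24.4 and 30.5 CPM with PgLPS and 56.3, 50.9 and 61.0 CPM with both agents, without overlap. Dusp16 (-1.78 ± 0.099) and Dusp1 (-0.66 ± 0.083), phosphatases that switch off stress kinases, fell, and Dusp6 was kept (-0.11 ± 0.086). Of 19 JAK, STAT and SOCS genes 8 fell and none rose, and the falls numbered 5 when either PgLPS library 3 or both-agent library 2 was set aside. Socs3, the feedback inhibitor of interleukin-6 signalling, fell from 832, 934 and 878 CPM to 409, 386 and 413 CPM (log2 fold change -1.13 ± 0.075, edgeR adjusted p = 3.22e-09), and Socs1 (-1.41 ± 0.12) and Jak2 (-1.10 ± 0.083) fell as well.

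Most antiviral interferon-stimulated genes lay within the margin, but falls outnumbered rises. Of 28 tested, 25 lay within 1.5-fold, 7 of them with a small called change. The share within 1.5-fold grew with level, and was 65.6% over all tested genes and 87.9% in the highest quartile by level. In the list 9 fell and 1 rose, where 10% of all tested genes fell and 9.42% rose, and the median was -0.16. Rsad2, which makes the chain-terminating antiviral nucleotide ddhCTP, held 1941, 1833 and 1718 CPM with PgLPS, 2053, 1957 and 1942 CPM with both agents and 6.19 ± 0.625 CPM in control cells. All 3 libraries with both agents were just above the PgLPS libraries, and the change of 0.12 ± 0.071 was not called (edgeR adjusted p = 0.292). Parp14 (0.09 ± 0.073) was kept, and Herc6 (-0.37 ± 0.073) and the nucleic acid sensor Zbp1 (-0.30 ± 0.058) fell slightly. Ifit3b rose (0.52 ± 0.10), but it is nearly identical to Ifit3, and counting could divide reads between them. Interferon regulatory factors Irf2 (-0.06 ± 0.062) and Irf8 (-0.05 ± 0.057) were kept, Irf7 fell a little (-0.27 ± 0.063) and Irf5 rose (0.55 ± 0.052).

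The promoter of Rsad2 shows the interferon-stimulated response element in capitals (GAAA, any 2 bases, GAAA), in the 250 bases before the RefSeq start at chr12:26456453-26456702 (- strand, GRCm38.p6).
Rsad2: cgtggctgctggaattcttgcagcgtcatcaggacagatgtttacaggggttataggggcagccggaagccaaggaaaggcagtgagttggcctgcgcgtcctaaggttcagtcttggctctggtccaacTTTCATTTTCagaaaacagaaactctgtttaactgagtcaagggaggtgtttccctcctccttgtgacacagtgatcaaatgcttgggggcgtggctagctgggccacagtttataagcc
The element began 120 bases before the start. It was found on either strand in 10 of 22 antiviral list genes (45.5%), in 6.34% of 930 lowered genes, in 2.84% of 880 raised genes, in 3.34% of 6253 kept genes and in 3.46% of all 9381.

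The guanylate-binding proteins and their relatives are GTPases that attack vacuoles around pathogens and respond strongly to interferon gamma. Of 15 tested members 10 fell and none rose, with a median of -0.32. Gbp5 measured 576, 554 and 523 CPM and 304, 288 and 297 CPM (log2 fold change -0.89 ± 0.094, edgeR adjusted p = 1.24e-06). Gbp2 went from 1200 ± 79.5 to 738 ± 62.6 CPM (log2 fold change -0.70 ± 0.087, edgeR adjusted p = 8.91e-06), and Irgm1 was kept (0.01 ± 0.054). These families hold close copies, so single members are uncertain where counting could share reads. Whether the family's fall differs from that of the antiviral list was not tested.

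Antigen presentation genes were mostly within the margin, and several co-stimulation genes fell. In the MHC class I list 14 of 18 genes were within 1.5-fold and 8 fell, a count of 5 without PgLPS library 2 and of 4 without both-agent library 1 or 3. Tap1, the peptide transporter (-0.32 ± 0.07), and its partner Tapbp (-0.31 ± 0.065) fell slightly, and H2-D1 was kept (-0.10 ± 0.069). Of 9 class II genes 6 were within 1.5-fold, H2-Aa (-0.08 ± 0.068) and the invariant chain Cd74 (-0.14 ± 0.071) among them, and 3 could not be placed. The 1 called, H2-Eb1 (-0.23 ± 0.069, edgeR adjusted p = 0.0262), was lower, and its call was lost without PgLPS library 3 or both-agent library 1 or 3, at adjusted p from 0.0668 to 0.114, with library totals for scaling (0.077) and in a fit of the 6 libraries alone (0.0524). Among 12 co-stimulation and checkpoint ligands 7 fell, at a median of -0.51. Icam1, the adhesion ligand of T cells, fell from 314 ± 26.7 to 220.4 ± 5.396 CPM (log2 fold change -0.51 ± 0.062, edgeR adjusted p = 7.38e-06), as did the checkpoint ligand Cd274 (log2 fold change -0.51 ± 0.063, edgeR adjusted p = 8.67e-06), while the checkpoint Vsir rose (log2 fold change 0.53 ± 0.058, edgeR adjusted p = 1.7e-06).

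Inflammasome and death genes were lowered in part. Of 16 inflammasome genes 7 fell and 3 rose. Nlrp3, the sensor that licenses interleukin-1 release, stood at 265, 219.6 and 252 CPM with PgLPS and 119.9, 86.5 and 122 CPM with both agents (log2 fold change -1.17 ± 0.10, edgeR adjusted p = 9.28e-08). Mefv (-0.70 ± 0.10) and Naip2 (-0.39 ± 0.079) fell, and Gsdme, a pore-forming gasdermin (0.73 ± 0.11), and Nlrp1b (0.85 ± 0.14) rose. The caspase-8 inhibitor Cflar fell (-0.61 ± 0.076), as did Tnfrsf1b (-0.58 ± 0.053), while Tnfrsf1a was kept (-0.04 ± 0.055).

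Nos2, Slc7a2 and Arg1, which take up or consume arginine, fell. Nos2, the inducible nitric oxide synthase, measured 15.7, 12.9 and 13.7 CPM with PgLPS, 3.25, 3.30 and 2.11 CPM with both agents and 0.0524 ± 0.0907 CPM in control cells, 4.84-fold lower (log2 fold change -2.28 ± 0.25, edgeR adjusted p = 1.34e-06). Slc7a2, an arginine carrier of activated macrophages, dropped from 1174, 846 and 1067 CPM to 237, 147 and 234 CPM (log2 fold change -2.32 ± 0.16, edgeR adjusted p = 5.71e-09). Arg1, an arginase, followed from 96.8, 69.3 and 107 CPM to 54.8, 30.1 and 49.6 CPM (log2 fold change -1.02 ± 0.19, edgeR adjusted p = 0.000623). In all 3 genes no library with both agents reached a PgLPS library. Ass1, which rebuilds arginine from citrulline, rose (0.50 ± 0.077), as did the polyamine enzyme Srm (0.70 ± 0.097), and the list as a whole had 5 rises and 5 falls of 14. Acod1, the itaconate-making enzyme, fell from 3211 ± 71.8 to 1919 ± 142 CPM (log2 fold change -0.74 ± 0.087, edgeR adjusted p = 4.42e-06).

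The cyclooxygenases of prostaglandin synthesis moved in opposite directions. Ptgs2, the inducible cyclooxygenase, held 91.6, 59.4 and 77.3 CPM with PgLPS and 42.8, 29.1 and 41.5 CPM with both agents (log2 fold change -1.01 ± 0.16, edgeR adjusted p = 9.84e-05), and the inducible terminal synthase Ptges fell with it (log2 fold change -1.25 ± 0.092, edgeR adjusted p = 1.38e-08). Ptgs1, the constitutive cyclooxygenase, rose from 3.89, 4.87 and 3.30 CPM to 9.63, 9.43 and 12.1 CPM (log2 fold change 1.37 ± 0.18, edgeR adjusted p = 1.1e-05), and control cells held 24.1 ± 2.29 CPM. Alox5ap, which presents arachidonic acid to 5-lipoxygenase, rose (0.69 ± 0.11). Of 14 genes in the list 5 rose and 3 fell.

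Of 23 glycolysis genes 10 fell and 2 rose, and 15, some of them called, lay within 1.5-fold. Pfkfb3, which makes the allosteric activator of phosphofructokinase, went from 600.2, 494 and 557 CPM to 141, 129.6 and 152 CPM, 3.91-fold lower (log2 fold change -1.97 ± 0.073, edgeR adjusted p = 2.11e-12). The transporter Slc2a6 (-0.85 ± 0.089) and the phosphofructokinase Pfkl (-0.74 ± 0.076) fell, while the last enzyme, Pkm, rose slightly (0.27 ± 0.052). Hif1a, the hypoxia and inflammation factor that acts on many of these genes, measured 497, 357 and 441 CPM and 142, 116 and 131 CPM (log2 fold change -1.73 ± 0.093, edgeR adjusted p = 2.79e-10), and Egln3 (-1.24 ± 0.30) and Bnip3 (-0.94 ± 0.17) fell. P4ha1 (0.02 ± 0.059) and Bnip3l (0.07 ± 0.072), also in the HIF-1 list, were kept. Of 19 tested genes in that list 3 fell, 1 rose and 12 were kept, at a median of -0.07. Among all tested genes 10% fell, 9.42% rose and 65.6% were kept. The HIF-1 falls numbered 5 without PgLPS library 2. The rise, Epas1 (1.14 ± 0.32), was no longer called without PgLPS library 3 or both-agent library 1 or 3, or in the 6 libraries alone. Of 24 oxidative phosphorylation subunits 23 were kept and none was called; leaving out PgLPS library 2 gave 2 rises and leaving out both-agent library 1 or 3 gave 1. Atp5b (-0.01 ± 0.063) and Sdha (0.01 ± 0.059) were among the genes kept.

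Of 14 acute-phase and antimicrobial genes 5 fell (3 without library 2 of either group), none rose, 3 were kept and 6 could not be placed. Saa3, the macrophage serum amyloid and one of the most abundant messengers of the PgLPS state, stood at 10890, 15560 and 12940 CPM with PgLPS, 3346, 3929 and 3271 CPM with both agents and 1.06 ± 0.482 CPM in control cells (log2 fold change -1.90 ± 0.23, edgeR adjusted p = 1.05e-05). Lcn2, an iron-siderophore trap, dropped from 477, 471 and 462 CPM to 118, 114 and 125 CPM (log2 fold change -1.98 ± 0.11, edgeR adjusted p = 2.79e-10), and Hp, haptoglobin, from 493 ± 43.1 to 161 ± 1.39 CPM (log2 fold change -1.61 ± 0.079, edgeR adjusted p = 8.59e-11). Lyz2, lysozyme, was kept at 17560 ± 1112 and 17790 ± 582 CPM (0.02 ± 0.054). Neutrophils also make Lcn2 and Hp, and the summed neutrophil markers were 276 to 297 CPM with PgLPS and 210 to 252 CPM with both agents. Their part in these falls was not tested.

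Of the clot and matrix genes, Serpinb2, an inhibitor of plasminogen activators, was among the largest falls, from 293, 215 and 328 CPM to 32.9, 20.9 and 29.3 CPM, with 0 reads in control cells (log2 fold change -3.33 ± 0.15, edgeR adjusted p = 2.31e-10). The protease it inhibits, Plau, rose from 42.9, 44.6 and 45.0 CPM to 97.98, 106 and 107 CPM (log2 fold change 1.23 ± 0.06, edgeR adjusted p = 6.48e-11). Thbs1, a matrix glycoprotein that activates latent TGF-beta, measured 891, 563 and 893 CPM with PgLPS and 116, 74.3 and 119 CPM with both agents (log2 fold change -2.93 ± 0.15, edgeR adjusted p = 3.07e-10). PgLPS library 2 was the lowest of its group for Thbs1. Vcan, a matrix proteoglycan (log2 fold change -2.13 ± 0.17, edgeR adjusted p = 3.15e-08), Mmp13, a collagenase (log2 fold change -1.58 ± 0.077, edgeR adjusted p = 8.09e-11), Mmp14 (-0.74 ± 0.08), the endothelin Edn1 (-1.98 ± 0.26) and the activin subunit Inhba (-1.56 ± 0.18) also fell. Angptl2 (log2 fold change 1.94 ± 0.077, edgeR adjusted p = 4.35e-12) and Pdgfb (log2 fold change 1.12 ± 0.08, edgeR adjusted p = 8.4e-09) rose.

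Because matrix genes are also made by stroma, the whole stromal marker list was read beside them. Col1a1 had 287, 57 and 18 reads in the PgLPS libraries and 22, 24 and 9 with both agents, and Col1a2 had 296, 48 and 7 against 17, 9 and 2. Without PgLPS library 1 the falls of Col1a1 (log2 fold change -1.03, adjusted p = 0.255) and Col1a2 (-1.55, 0.241) were no longer called, and the lowered stromal markers went from 4 to 2. Pdgfrb had 64, 41 and 57 reads against 12, 13 and 12. Fn1, the most read of the list and also made by macrophages, had 549, 351 and 378 reads against 259, 276 and 194, and its fall of -0.91 was -0.56 without PgLPS library 1, still called (edgeR adjusted p = 0.00169). Dcn had 9, 10 and 15 reads against 18, 13 and 5. Col3a1 had 43, 4 and 0 against 0, 2 and 0, Postn 70, 26 and 11 against 9, 6 and 4, and Col6a3 30, 5 and 1 against 2, 0 and 3. Thy1, Pdgfra and Lum had at most 4 reads in any library. Stromal reads therefore differed between single PgLPS libraries, and their part in the matrix results was not tested.

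Receptors for antibody-coated targets fell, and scavenger receptors moved both ways. Of 5 tested Fc gamma receptor genes 4 fell, at a median of -0.56. Fcgr2b, the inhibitory member, fell most, from 1261, 1343 and 1246 CPM to 407, 426 and 426 CPM (log2 fold change -1.61 ± 0.055, edgeR adjusted p = 2.11e-12), with Fcgr3 (-0.56 ± 0.076), Fcgr4 (-0.60 ± 0.10) and the shared signalling chain Fcer1g (-0.40 ± 0.071). Among 26 scavenger and efferocytosis receptors 12 rose and 5 fell. The activating receptors Trem1 (-1.67 ± 0.38) and Clec4e (-1.20 ± 0.069) and the oxidised lipoprotein receptor Olr1 (-1.36 ± 0.20) fell. Mertk, which takes up apoptotic cells (0.39 ± 0.087), Cd36, a fatty acid and lipoprotein receptor (0.74 ± 0.049), Cd300a (0.60 ± 0.058) and the galactose lectin Clec10a (1.23 ± 0.27) rose. Cd36 held 2127, 1990 and 2002 CPM with PgLPS, 3456, 3376 and 3397 CPM with both agents and 3844 ± 111 CPM in control cells, without overlap between the groups compared. Of 7 phagocyte oxidase genes 4 fell by small amounts, with Cybb, the catalytic subunit, at -0.36 ± 0.07, and Cyba was kept (-0.08 ± 0.11).

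**Figure D3:**
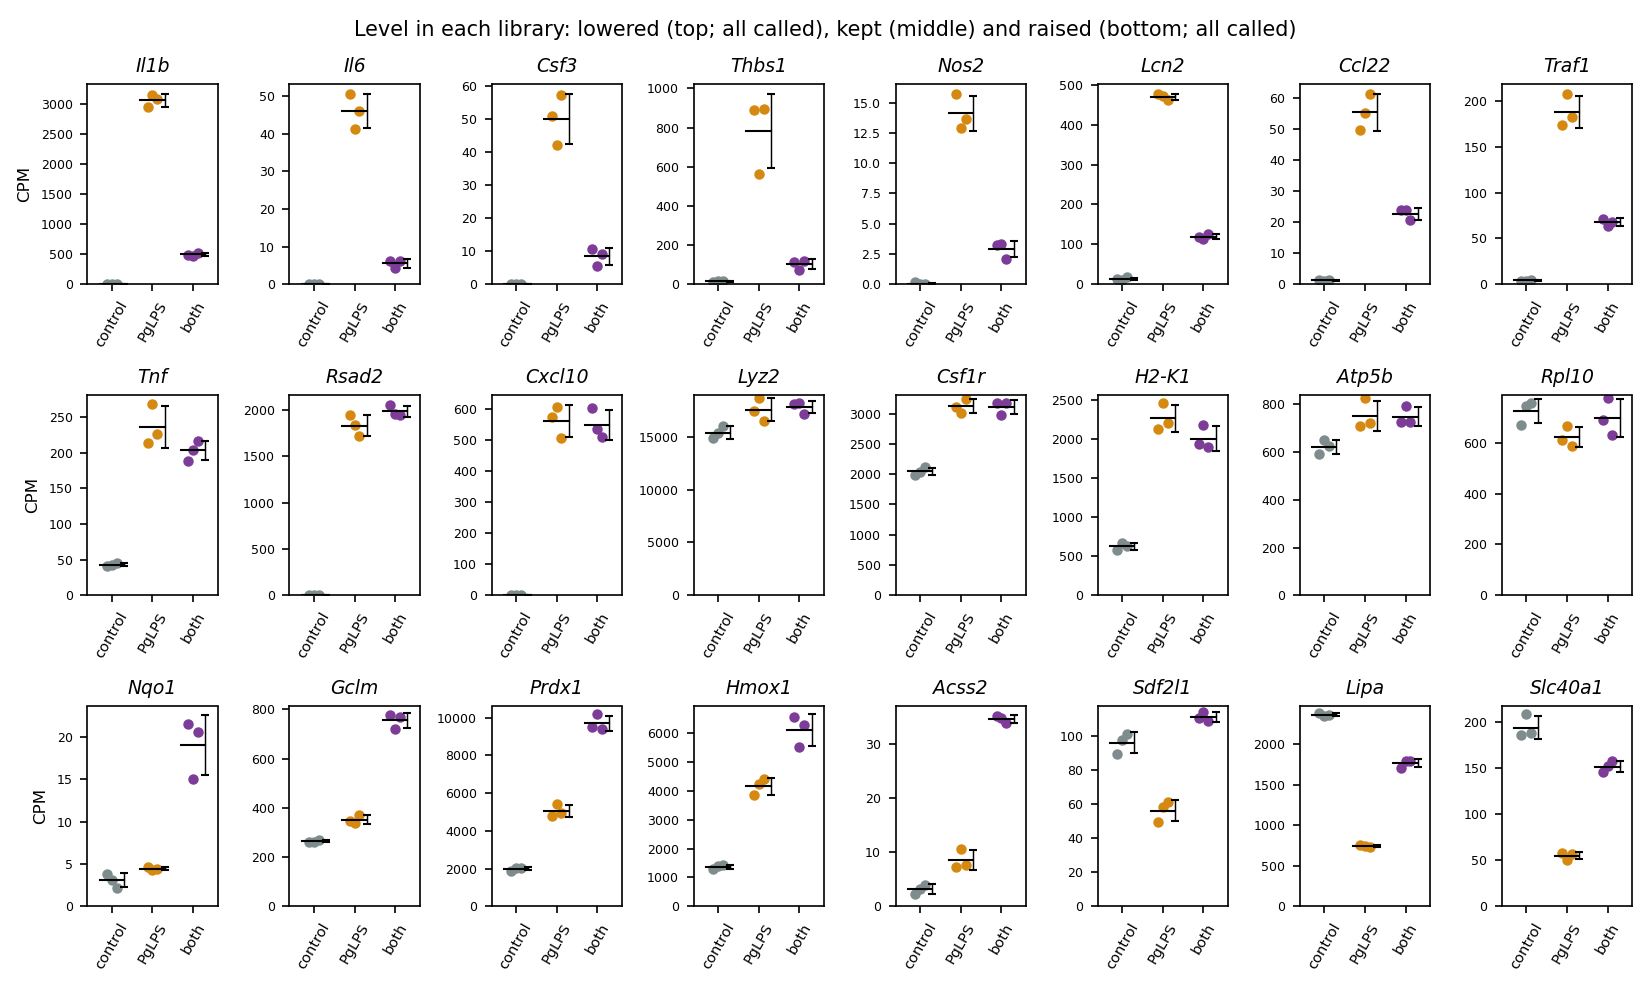
Level in CPM of 24 genes in each control, PgLPS and PgLPS with CS-PA/CNP library (points; line, mean; bar, SD; n = 3 a group), with lowered genes on top, kept genes that were not called in the middle and raised genes below. Il1b goes from 3063 ± 105 to 499 ± 27.6 CPM and Prdx1 from 5043 ± 313 to 9701 ± 419.7 CPM, while Lyz2 stays at 17560 ± 1112 and 17790 ± 582 CPM.

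The NRF2 and glutathione list had the highest median change of the lists. Of 31 tested genes 22 rose and 4 fell, with a median of 0.56. Nqo1, the quinone reductase used as the standard readout of NRF2, held 4.65, 4.29 and 4.38 CPM with PgLPS and 21.6, 15.0 and 20.6 CPM with both agents, 4.29-fold higher, against 3.04 ± 0.824 CPM in control cells (log2 fold change 2.10 ± 0.18, edgeR adjusted p = 6.28e-08). Gclm, the regulatory subunit of the first glutathione-making enzyme, measured 346, 339 and 372 CPM and 778, 722 and 768 CPM (log2 fold change 1.10 ± 0.055, edgeR adjusted p = 1.04e-10). Gss, which completes glutathione, went from 13.7, 11.8 and 14.9 CPM to 41.2, 34.9 and 46.6 CPM (log2 fold change 1.598 ± 0.13, edgeR adjusted p = 2.54e-08). The groups did not overlap for any of these. Prdx1, a peroxidase that removes hydrogen peroxide, rose from 4799, 5397 and 4935 CPM to 9492, 10180 and 9426 CPM (log2 fold change 0.94 ± 0.053, edgeR adjusted p = 3.42e-10), and Prdx6 from 116 ± 5.72 to 307 ± 18.3 CPM (log2 fold change 1.40 ± 0.067, edgeR adjusted p = 6.29e-11). Hmox1, which opens the haem ring, held 3840, 4225 and 4412 CPM and 6555, 5505 and 6274 CPM, with 1376 ± 68.9 CPM in control cells (log2 fold change 0.56 ± 0.071, edgeR adjusted p = 1.21e-05). The glutathione transferases Gsta3 (1.61 ± 0.076) and Mgst2 (1.57 ± 0.23) and the autophagy adaptor Sqstm1 (0.62 ± 0.064) rose. The 4 members that fell were Nfe2l2, which encodes NRF2 (-0.31 ± 0.056), the glutathione reductase Gsr (-0.32 ± 0.055), Prdx5 (-0.56 ± 0.07) and Sod2, a mitochondrial dismutase that is also an NF-kB target (-0.50 ± 0.05).

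For 2 of these raised genes the promoter is shown with the antioxidant response element, searched as TGACNNNGC on both strands, in capitals: Gclm at chr3:122245307-122245556 (+ strand) and Prdx1 at chr4:116685349-116685598 (+ strand), each 250 bases before the RefSeq start in GRCm38.p6.
Gclm: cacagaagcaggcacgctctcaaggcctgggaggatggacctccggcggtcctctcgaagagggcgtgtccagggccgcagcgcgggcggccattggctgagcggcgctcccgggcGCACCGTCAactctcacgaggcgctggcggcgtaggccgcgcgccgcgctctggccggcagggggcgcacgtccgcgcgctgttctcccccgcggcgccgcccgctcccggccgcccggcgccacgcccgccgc
Prdx1: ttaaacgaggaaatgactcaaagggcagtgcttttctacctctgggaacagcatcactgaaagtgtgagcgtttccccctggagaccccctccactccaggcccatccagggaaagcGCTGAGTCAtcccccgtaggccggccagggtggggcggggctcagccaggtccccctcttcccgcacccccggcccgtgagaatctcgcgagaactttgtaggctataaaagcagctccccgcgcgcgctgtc
The element began 134 bases before the start in Gclm and 133 in Prdx1, where it overlaps an AP-1 site. Of 26 list genes with a promoter 7 held it (26.9%), against 17.4% of 880 raised genes and 14.1% of all 9381. Lowered genes held it in 14.4% of 930. The share was not particular to the NRF2 list. The lowered NF-kB list held the element in 5 of 19 promoters (26.3%) and the unfolded protein response list in 4 of 18 (22.2%).

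Of 8 pentose phosphate genes 4 rose and none fell. Taldo1, transaldolase, went from 380.1, 408 and 391.9 CPM to 773, 826 and 742 CPM (log2 fold change 0.99 ± 0.06, edgeR adjusted p = 9.33e-10), and Pgd, which makes NADPH, from 967 ± 52.0 to 1560 ± 13.5 CPM (log2 fold change 0.69 ± 0.054, edgeR adjusted p = 2.33e-08). The NADPH-making isocitrate dehydrogenases Idh1 (0.44 ± 0.057) and Idh2 (0.65 ± 0.083) also rose. In iron handling, 7 of 17 genes rose and 3 fell. Slc40a1, ferroportin, the known iron exporter of mammalian cells, measured 58.3, 50.6 and 56.2 CPM with PgLPS, 145, 152 and 157 CPM with both agents and 194 ± 12.9 CPM in control cells (log2 fold change 1.46 ± 0.09, edgeR adjusted p = 1.26e-09). The ferritin light chain Ftl1 rose (0.52 ± 0.085) and the heavy chain Fth1, an abundant messenger, was kept (-0.05 ± 0.066), although both have pseudogene copies that could take reads. Ceruloplasmin, Cp, which oxidises exported iron, fell (log2 fold change -1.58 ± 0.059, edgeR adjusted p = 2.11e-12).

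Endoplasmic reticulum chaperones rose by small amounts. Of 21 unfolded protein response genes 16 rose, 1 fell, 10 lay within 1.5-fold (6 of those called), and the median was 0.43. Hspa5, the main chaperone of this compartment, stood at 1254, 1163 and 1180 CPM with PgLPS and 1700, 1572 and 1579 CPM with both agents (log2 fold change 0.43 ± 0.051, edgeR adjusted p = 5.31e-06). Calr, calreticulin, measured 850.4, 839.8 and 822 CPM and 1358, 1361 and 1351 CPM (log2 fold change 0.70 ± 0.049, edgeR adjusted p = 6.51e-09). Sdf2l1 (log2 fold change 0.98 ± 0.078, edgeR adjusted p = 3.15e-08) had the largest rise of the list, and Pdia3, a disulfide isomerase, rose too (0.51 ± 0.049). In each of these genes the 3 libraries with both agents were above the 3 PgLPS libraries. The 1 gene that fell, Ern1, encodes the stress sensor IRE1 (-0.37 ± 0.087). Of 16 tested genes of the integrated stress response and serine synthesis 2 rose, 2 fell and 4 could not be placed. Over all tested genes, 9.42% rose and 10% fell. Slc1a5 (0.90 ± 0.088) and Shmt2 (0.35 ± 0.094) rose, and Psat1 (-0.31 ± 0.088) and Mthfd2 (-0.23 ± 0.064) fell. Either count was 1 when some single libraries were left out. Atf4 (-0.05 ± 0.054) and Slc3a2 (-0.04 ± 0.058) were kept. Of 15 heat shock chaperones 8 rose, none fell and 12 lay within 1.5-fold, 6 of them called. The rises numbered 5 without PgLPS library 3 or both-agent library 1 or 3. Hspa1b (0.84 ± 0.14), Hsp90aa1 (0.21 ± 0.051) and the mitochondrial Hspd1 (0.27 ± 0.058) rose and Hspa8 was kept (0.06 ± 0.049).

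The promoters of Hspa5 (chr2:34771840-34772089, + strand) and Calr (chr8:84846932-84847181, - strand), 250 bases before the RefSeq start in GRCm38.p6, carry the endoplasmic reticulum stress element, shown in capitals (CCAAT, any 9 bases, CCACG).
Hspa5: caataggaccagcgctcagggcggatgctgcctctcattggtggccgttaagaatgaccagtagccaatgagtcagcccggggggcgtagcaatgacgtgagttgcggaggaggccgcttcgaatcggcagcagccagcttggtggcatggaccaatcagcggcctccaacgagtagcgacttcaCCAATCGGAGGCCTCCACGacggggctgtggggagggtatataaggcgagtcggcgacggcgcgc
Calr: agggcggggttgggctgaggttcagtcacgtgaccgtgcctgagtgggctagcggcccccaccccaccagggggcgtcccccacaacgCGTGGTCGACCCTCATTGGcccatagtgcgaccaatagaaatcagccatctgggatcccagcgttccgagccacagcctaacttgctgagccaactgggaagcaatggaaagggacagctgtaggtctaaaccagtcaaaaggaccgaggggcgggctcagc
The element began 65 bases before the start in Hspa5 and 162 in Calr. Within this window, on both strands, 16 of the 9381 tested genes with a promoter held it (0.171%). They included 8 of 18 genes in the list, 8 of 880 raised genes (0.909%) and 0 of 930 lowered genes.

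Of 23 cholesterol synthesis genes 10 rose, none fell and 21 were within 1.5-fold. Sqle, squalene epoxidase (0.42 ± 0.066), and Dhcr7, a sterol reductase (0.86 ± 0.087), rose. Of 15 fatty acid genes 7 rose and none fell. Acss2, which turns acetate into acetyl-CoA, went from 7.32, 10.7 and 7.62 CPM to 35.2, 34.9 and 33.9 CPM, 4.06-fold higher (log2 fold change 2.02 ± 0.16, edgeR adjusted p = 2.42e-08). Fads2, a desaturase (log2 fold change 1.12 ± 0.14, edgeR adjusted p = 7.75e-06), Elovl6, an elongase (5.01 ± 0.414 to 10.02 ± 1.17 CPM, edgeR adjusted p = 3.59e-05), and Fasn (log2 fold change 0.59 ± 0.087, edgeR adjusted p = 5.09e-05) rose, while Acly was kept (0.10 ± 0.058).

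Among lipid handling genes 7 of 19 rose and 3 fell, with 1 fall without PgLPS library 2 or 3 or both-agent library 1 or 3. Lipa, the lysosomal acid lipase, held 756, 746 and 727 CPM with PgLPS, 1707, 1793 and 1796 CPM with both agents and 2363 ± 16.7 CPM in control cells (log2 fold change 1.249 ± 0.047, edgeR adjusted p = 2.11e-12). Pparg, a lipid-sensing nuclear receptor, rose from 6.91 ± 0.898 to 15.8 ± 2.24 CPM (log2 fold change 1.19 ± 0.13, edgeR adjusted p = 2.08e-06), with lipoprotein lipase, Lpl (0.71 ± 0.072). Abca1, the cholesterol exporter, fell (log2 fold change -0.90 ± 0.10, edgeR adjusted p = 3.15e-06). Of 31 lysosomal genes 27 lay within 1.5-fold, 7 of them with a small called change. In that list 6 rose and 5 fell, where 9.42% and 10% of all tested genes did. Leaving out some single libraries brought either count to 3. The cathepsins Ctsb (0.03 ± 0.061) and Ctss (-0.05 ± 0.071) were kept and not called, while Ctsc fell (-0.71 ± 0.057) and Ctsl rose (0.42 ± 0.048).

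Of 21 genes of macrophage identity 14 were kept, a share near the 65.6% over all tested genes, with Csf1r and Adgre1 (-0.08 ± 0.052) among them. In the same list 5 fell, including Cd14 and, within the 1.5-fold margin, Itgam (-0.28 ± 0.058), and 3 rose, Mertk, Cebpa (0.62 ± 0.084) and Cx3cr1. Alternative activation genes did not move as a block. Arg1, Tgm2 (-0.67 ± 0.08), Il4ra (-0.44 ± 0.062) and Ccl22 fell, and Pparg and Clec10a rose. Of the DNA replication list 7 of 31 rose, with Pcna (0.68 ± 0.07), Mcm2 (0.47 ± 0.096) and Mcm6 (0.56 ± 0.10) raised and Tyms lowered (-0.998 ± 0.22). Of 25 mitosis genes 19 could not be placed, Mki67 was lower (-1.02 ± 0.09) and Cenpf was higher (1.21 ± 0.39, edgeR adjusted p = 0.0273). The call of Cenpf was lost without PgLPS library 1 or 2 or both-agent library 1 or 2, at adjusted p from 0.0678 to 0.0956, without library 2 of either group (0.171) and in a fit of the 6 libraries alone (0.105).

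Housekeeping classes were kept. All 30 tested ribosomal protein genes lay within 1.5-fold, at a median of 0.16. The number of them called raised was 4, and 1 without PgLPS library 1, 21 without PgLPS library 2 and 2 without both-agent library 2. The proteasome list was likewise kept in all 28 genes. Of the 20 genes with the highest mean CPM per kilobase of gene length over the 6 libraries, 10 were not called and kept, 5 rose and 5 fell. On that scale Fth1 stood at a level of 13050 with PgLPS and 12600 with both agents. Lyz2 stood at 13350 and 13520, and Saa3 went from 5039 to 1349 CPM per kilobase.

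**Figure D4:**
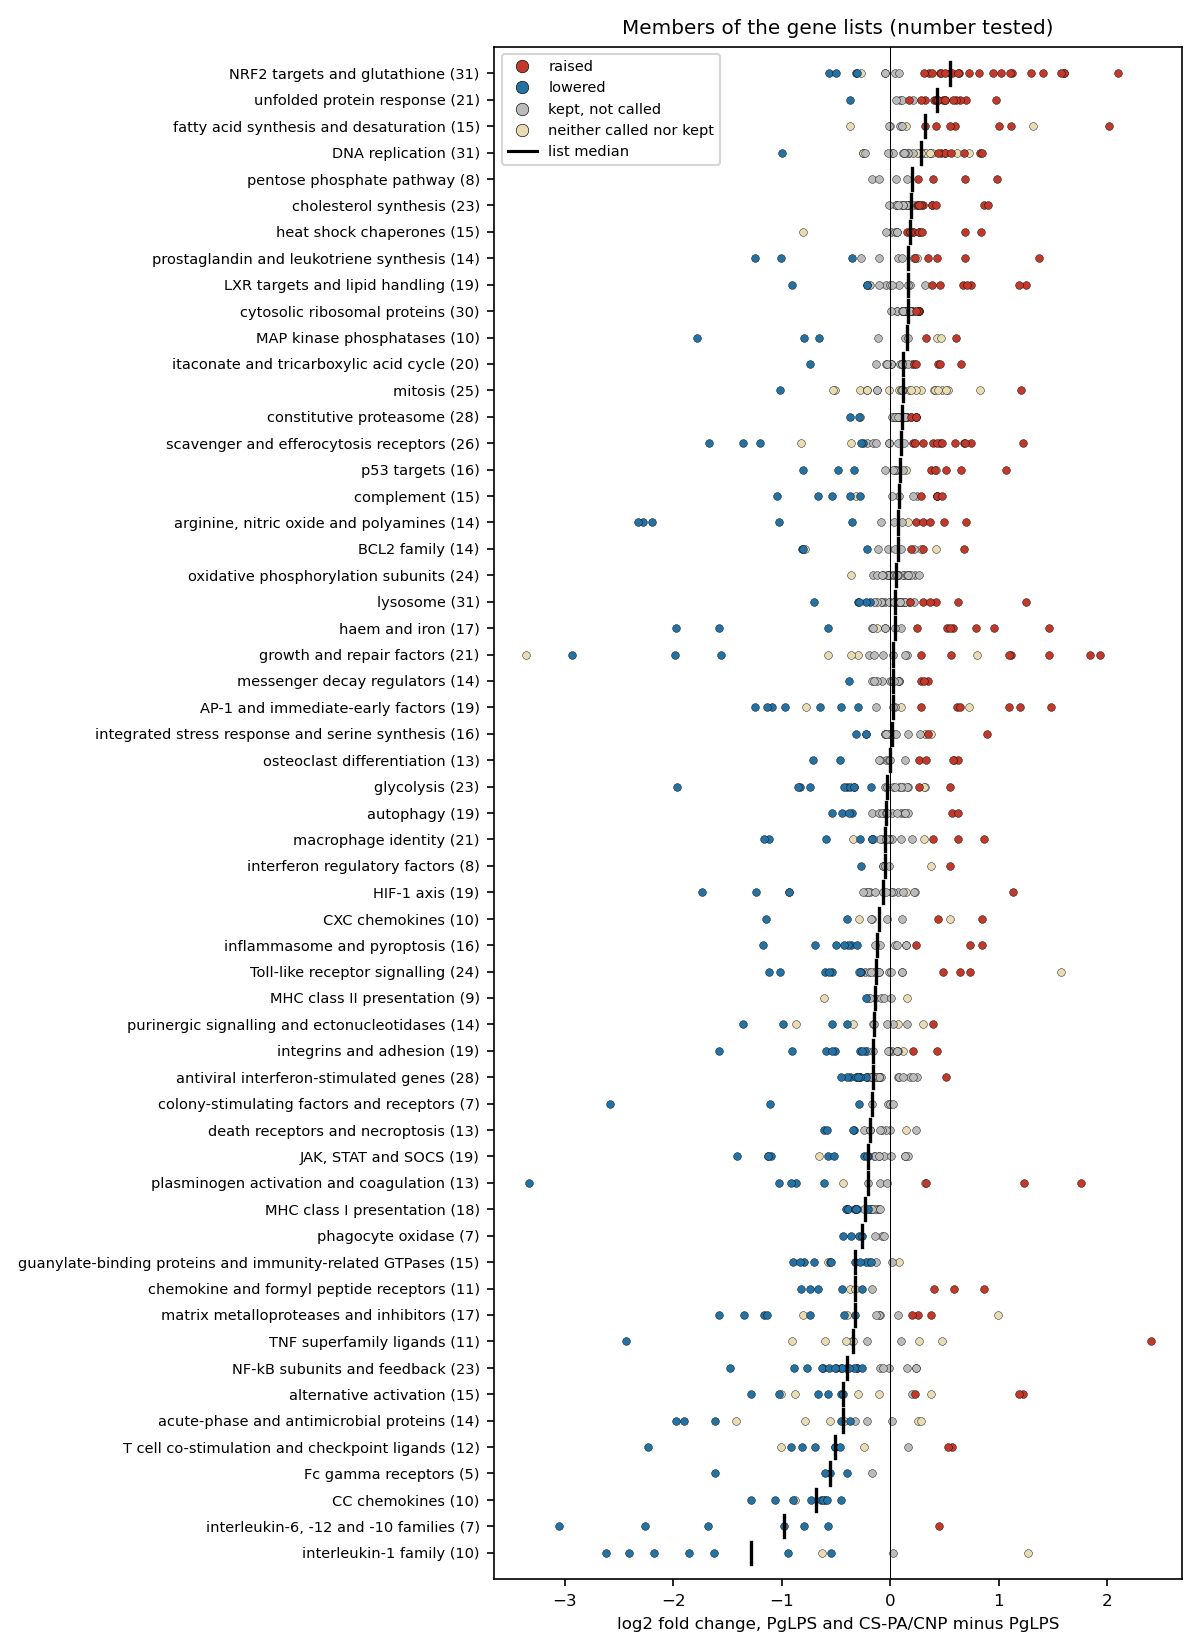
Each point is a tested member of a gene list, placed by its log2 fold change (PgLPS and CS-PA/CNP minus PgLPS), with black ticks at the list medians and the number tested in brackets. The NRF2 list has the highest median, 0.56, and the interleukin-1 family the lowest, -1.28.

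Among the largest changes outside these groups, Draxin, an axon guidance protein, was at 6.56, 4.48 and 4.74 CPM with PgLPS and at 0.456, 0.521 and 0.409 CPM with both agents (log2 fold change -3.48 ± 0.48, edgeR adjusted p = 1.05e-05). Cd33, a sialic acid receptor of myeloid cells, fell from 154, 124 and 159.9 CPM to 41.99, 29.9 and 42.3 CPM (log2 fold change -1.94 ± 0.12, edgeR adjusted p = 2.17e-09), and Ch25h, which makes 25-hydroxycholesterol, from 9.22, 5.85 and 6.72 CPM to 2.15, 0.752 and 2.11 CPM (log2 fold change -2.13 ± 0.33, edgeR adjusted p = 8.37e-05). Igfbp7 (-1.96 ± 0.28), Wfdc21 (-2.38 ± 0.35) and Tmc3 (-1.96 ± 0.32) also fell. On the other side, Cgnl1, a junction protein, rose from 4.12, 4.48 and 6.72 CPM to 20.9, 16.7 and 22.8 CPM (log2 fold change 1.95 ± 0.17, edgeR adjusted p = 4.39e-08) and stood at 62.8 ± 0.892 CPM in control cells. Ednrb, the endothelin B receptor, rose from 28.2, 31.6 and 28.9 CPM to 94.5, 81.6 and 97.5 CPM (log2 fold change 1.62 ± 0.12, edgeR adjusted p = 1.39e-08), while its ligand gene Edn1 fell. Treml4 (1.71 ± 0.16), Fcrl1 (2.05 ± 0.19), Afp (1.51 ± 0.13), the iron-binding oxidoreductase Pir (1.70 ± 0.18) and Nav2 (1.71 ± 0.13) rose. Acat3, lowered (-2.17 ± 0.35), and Serpinb6b (1.76 ± 0.13) and Serpinb9b (1.63 ± 0.11), raised, have near-identical relatives and are uncertain.

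The same agent without PgLPS gave a comparison of the other 6 libraries, CS-PA/CNP against control, fitted in the same model but sharing no library with the first. There, 777 genes rose (6.67%) and 654 fell (5.61%). Of the 1098 genes raised beside PgLPS, 200 (18.2%) were also raised without it, which is 25.7% of the 777. Of the 1170 genes lowered beside PgLPS, 227 (19.4%) were raised without it, 29.2% of the 777, and 63 (5.38%) were lowered, 9.63% of the 654. A further 179 genes were raised beside PgLPS and lowered without it, 16.3% of the first list and 27.4% of the second. Across all 11656 genes the log2 fold changes of these comparisons had a Pearson r of -0.045, a description over genes that share 1 fit and its scaling.

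**Figure D5:**
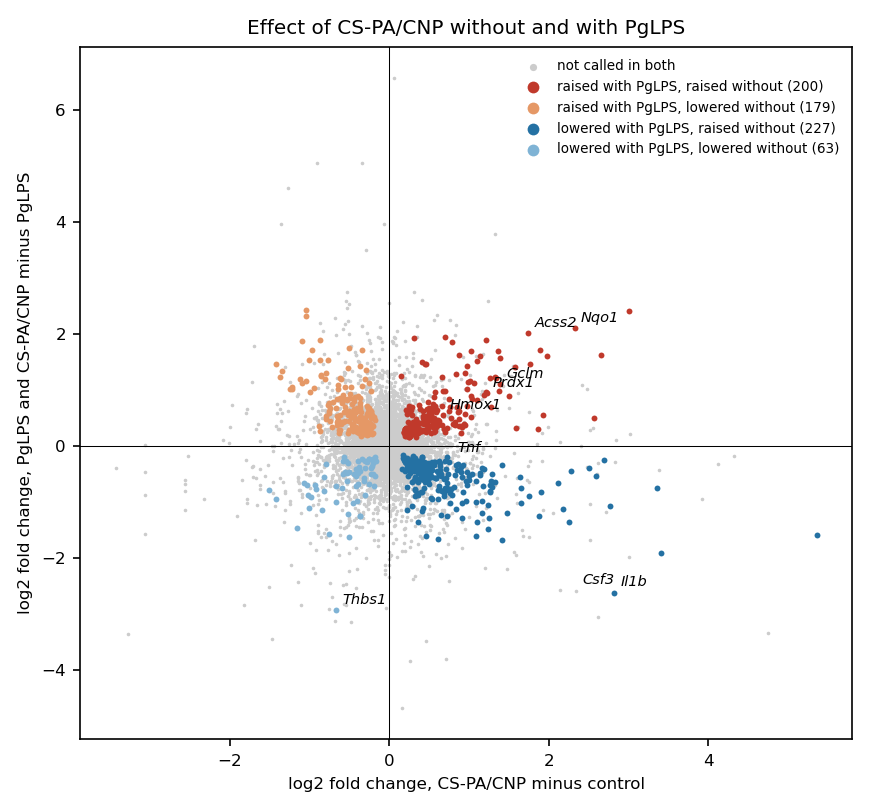
Each point is 1 of 11656 tested genes, with the log2 fold change of CS-PA/CNP minus control on the horizontal axis and of PgLPS and CS-PA/CNP minus PgLPS on the vertical axis; coloured genes were called in both comparisons. Nqo1 lies at 2.10 with PgLPS and 2.32 without it, and Il1b at -2.62 with PgLPS and 2.82 without it. Without PgLPS, Il1b was low, at a mean of 0.454 CPM in control cells and 3.18 CPM with CS-PA/CNP.

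In the NRF2 list 26 of 31 genes were raised without PgLPS, where Nqo1 changed by 2.32 ± 0.19, Gclm by 1.39 ± 0.055 and Hmox1 by 0.67 ± 0.071. In the NF-kB list 13 of 23 genes were raised without PgLPS, where 16 were lowered beside it. Traf1 changed by 1.24 ± 0.15 and Nfkbia by 1.09 ± 0.065 without PgLPS. The test of the difference between the effects with and without PgLPS, the interaction term over all tested genes, called 1842 genes (15.8%), 870 with the more positive (7.46%) and 972 with the more negative effect (8.34%) beside PgLPS. It called Traf1 (-2.72 ± 0.18, edgeR adjusted p = 3.88e-09) and Nfkbia (-1.71 ± 0.09, edgeR adjusted p = 2.3e-10), and gave -0.22 ± 0.26 for Nqo1 (edgeR adjusted p = 0.653) and -0.12 ± 0.10 for Hmox1 (edgeR adjusted p = 0.52), which were not called.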

How the data were processed

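Messenger RNA of mouse bone marrow-derived macrophages was sequenced in 12 libraries, 4 groups of 3. The authors deposited 1 table with a count of reads per gene for each library, per the file headers. Another 12 columns of length-scaled values were not used. Tools listed, per the submitters' processing notes and without their roles, are HTSeq 0.9.1, DESeq 1.30.0, cutadapt 1.15 and HISAT2 2.0.5. Not given in the sources used here were the genome build, annotation and strand setting. Overlapping and antisense genes therefore could not be separated. Columns were tied to groups by their letters, and their numbers were not matched to sample titles.

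The deposited counts of all 12 libraries were fitted in edgeR 4.0.16 (R 4.3.3), with its low-count filter, TMM scaling and quasi-likelihood test, 1 coefficient per group. Levels were compared between genes only as CPM per kilobase of the gene length in the table. Alternatives (DESeq2 1.42.0, other scalings and filters, the 6 libraries alone, a replicate block, each library left out) are given at the end. The fit was tested on simulated data. Promoters came from RefSeq tables of GRCm38.p6 and were searched for each motif over 250 bases; 9381 of the 11656 tested genes matched an entry. Thbs1, Csf3, Nos2, Prdx6 and Hmox1 had none.

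The members and gene lists were chosen with earlier results of these data known. Named genes were the 20 largest falls and rises among called genes with 5 CPM or more and no overlap of libraries, the 3 members of each list with the smallest adjusted p and the 3 with the highest level, members with the opposite call to their list, the 20 genes with the highest level per length, and Il1b, Il6, Tnf, Il10, Nos2, Arg1, Nqo1 and Hmox1. Depth sets the precision of low genes, and SEs cover the spread between 3 libraries a group.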

Additional observations from a re-analysis of the deposited data

Results flagged for a closer look

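In 4 of the cytokine and enzyme genes followed in both settings, the effect of CS-PA/CNP beside PgLPS differed from its effect without PgLPS by the interaction test over all tested genes. The log2 effect on Il1b was -2.62 ± 0.12 beside PgLPS and 2.82 ± 0.47 without it, a difference of -5.44 (edgeR adjusted p = 6.2e-09). Without PgLPS, Il1b was low, at a mean of 0.454 CPM in control cells and 3.18 CPM with CS-PA/CNP. Beside it, the means were 3063 CPM with PgLPS and 499 CPM with both agents. For Il6 the effects were -3.06 ± 0.16 and 2.62 ± 1.17, and the difference was -5.68 (edgeR adjusted p = 8.1e-05), although the effect without PgLPS was itself not called (edgeR adjusted p = 0.0559) at a mean level of 0.0373 CPM in control cells. Tnf, not called beside PgLPS (-0.22 ± 0.078), was raised without it (0.78 ± 0.083), a difference of -1.0 (edgeR adjusted p = 3.4e-06). Arg1 fell beside PgLPS (-1.02 ± 0.19) and changed by 0.51 ± 0.39 without it, a difference of -1.53 (edgeR adjusted p = 0.0197). In Nqo1, Hmox1, Nos2 and Il10 the difference was not called. That of Nos2 was too imprecise to read (-2.23 ± 1.38), at means of 0.0524 CPM in control cells and 0.0517 CPM with CS-PA/CNP alone. Over all tested genes the interaction was called in 1842.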

How the results depend on the processing

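Counts of raised and lowered genes kept within 1.5 times of the reported values (1098 and 1170) under every alternative run. They were 1082 and 1189 with DESeq2's size factors in edgeR, 1497 and 940 with library totals, 1202 and 1171 without a filter (15721 genes tested), 1084 and 1192 with a filter of 1 CPM, 1189 and 1291 with DESeq2, and 810 and 933 from the 6 libraries alone. Leaving out 1 library at a time gave 903 to 1117 raised, 966 to 1233 lowered, 140 to 155 raised and 183 to 210 lowered at least 2-fold, and 7239 to 7415 kept. Leaving out library 2 of either group, an alternative chosen after seeing the data, gave 1046 and 1149. The number kept follows its margin, with 3752 genes inside the narrower margin tried and 9627 inside 2-fold, in place of 7650 inside 1.5-fold. Of the 366 named genes no call turned to the other direction under an alternative. Library totals ended 11 calls and added 10, the 6 libraries alone ended 22 and added 2, leaving out 1 library ended 14 to 23 and added up to 8, and the replicate block added 21. Columns with the same number were not shown to be paired. The replicate block raised the counts to 1401 and 1504, the deviations of same-numbered libraries correlated at 0.118, 0.224 and 0.074, and each library correlated best with its own number, which is a hint from the data and not from the design. Low levels limit the rest, since 79.4% of the lowest quartile of genes could be neither called nor called kept.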

Other observations

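Several growth and signalling receptors outside the comparisons above also passed the test. The adenosine receptors Adora2a (-0.99 ± 0.15) and Adora2b (-1.36 ± 0.12), which restrain or reshape macrophage activation by adenosine, fell, as did the nucleotide receptor P2ry2 (-0.53 ± 0.091), while P2ry6 was kept (-0.03 ± 0.061) and Entpd1, which breaks down extracellular ATP, rose (0.39 ± 0.096). Of the integrins, Itgb8, a chain that activates latent TGF-beta (-1.58 ± 0.22), Itgal (-0.59 ± 0.065) and Itgam (-0.28 ± 0.058) fell, Itga6 rose (0.43 ± 0.084) and Itgb2 was kept (0.07 ± 0.045). Complement genes divided, with the central component C3 (-0.67 ± 0.061) and properdin, Cfp (-0.54 ± 0.087), lowered and the anaphylatoxin receptors C3ar1 (0.28 ± 0.049) and C5ar1 (0.43 ± 0.051) raised. Genes of osteoclast formation did not share a direction. Tnfrsf11a, the receptor RANK (0.58 ± 0.064), Mitf (0.33 ± 0.061) and Atp6v0d2 (0.62 ± 0.089) rose, and Acp5, the tartrate-resistant phosphatase (-0.46 ± 0.089), and Src (-0.71 ± 0.082) fell. Values are log2 fold changes, both agents minus PgLPS, with their SE.

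Messengers of the cytokine decay factors Zfp36 (0.35 ± 0.063) and Zfp36l2 (0.32 ± 0.066) rose while Zc3h12a fell. Among p53 targets, Cdkn1a (0.51 ± 0.066), Sesn1 (1.07 ± 0.11) and Trp53 itself (0.38 ± 0.067) rose, and Gadd45a (-0.80 ± 0.20) and Btg2 (-0.48 ± 0.10) fell. A few cytokines were too low to test. Csf2 had 3 reads over the PgLPS libraries and 0 with both agents, Lif had 11 and 0, and Ccl20 had 0 in each group.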
